A study of Mus musculus with 9 samples.

Results

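The replication-dependent histone genes are the short, mostly intronless genes of the Hist1, Hist2, Hist3 and Hist4 clusters, which supply the histone protein that new DNA is wrapped around. Members were the protein-coding genes whose symbol in GENCODE M21, on the mouse build GRCm38, begins with Hist1h, Hist2h, Hist3h or Hist4h. There are 67 of them (6 of class H1, 18 H2A, 18 H2B, 12 H3 and 13 H4), and 59 stood among the 20732 genes of the count table. Of these, 56 held enough reads to be tested. Hist1h1t, Hist1h4b and Hist2h2ab were in the table and below the filter on low counts. Hist1h2aa, Hist1h2bh, Hist1h2bm, Hist2h2aa1, Hist2h2aa2, Hist2h2bb, Hist2h3b and Hist2h3c1 were not analysed here.

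The RNA came from group 2 innate lymphoid cells (ILC2s), lymphocytes of tissues that carry no rearranged antigen receptor, sorted out of pancreas tissue of C57BL6/J mice. The sort took live CD45+ cells that lacked CD3, B220 and lineage markers and carried KLRG1. The control group was given PBS (4 libraries, titled naive), and the other group 200 ng of the cytokine IL-33 on days 0 and 1 (5 libraries). Pancreata of both groups were taken on day 5. Age is not given in the labels. They also do not tell whether libraries come from different mice, so a p-value reflects the spread from library to library. The series text has the numbers the other way round, 5 with PBS and 4 with IL-33, and the sample labels were followed.

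In a nucleosome, DNA winds around a core built of pairs of H2A, H2B, H3 and H4, and H1 sits on the linker where DNA enters and leaves. Cells make most of this protein during S phase, when the clustered genes are transcribed under the coactivator NPAT. Their messages are cut just after a conserved stem-loop that binds SLBP, and most carry no poly(A) tail, while the low-input kit named in the labels primes on poly(A). How much of the histone message it captured was not measured, so levels here are those of captured message. In bulk RNA, a larger share of dividing cells and more histone message per dividing cell cannot be told apart.

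The stem-loop is shown for the member with the highest mean level in each class among those where it was found, since it is the feature that sets these messages apart. Sequences are from the GENCODE M21 transcripts, read 5′ to 3′, with the stem-loop in capitals.
Hist1h1c: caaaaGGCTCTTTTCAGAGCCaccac
Hist1h2ap: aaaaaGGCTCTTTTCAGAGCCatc
Hist1h2bg: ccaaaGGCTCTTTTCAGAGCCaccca
Hist1h3e: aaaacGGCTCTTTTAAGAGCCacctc
Hist1h4i: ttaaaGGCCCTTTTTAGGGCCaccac

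The consensus of the stem-loop was found in 45 of the 67 members (67.2%) and in 18 of 21834 other protein-coding genes (0.0824%). Only the longest annotated transcript of each gene was searched. Several members without a hit have short ones, such as Hist1h2ai at 393 bases and Hist1h4k at 312. A stem-loop past the annotated end would be missed, so its absence from these genes was not shown. The left arm of the stem read GGCTC in every H1, H2A, H2B and H3 member that held it. In H4 it read GGCCC in 10 members and GGTCC in 2. The annotated transcript of Hist1h2ap ended 3 bases after the stem-loop, whereas that of Hist1h1c ran on for 840 bases and that of Hist1h3e for 369.

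The 150 bases upstream of the RefSeq start are shown for the member with the largest change in each class that had a RefSeq promoter, and for Hist1h2ac, the H2A member with the largest change among those whose octamer lay within these bases. Sequences are from RefSeq on GRCm38.p6, written 5′ to 3′ on the gene's strand. Capitals mark 5 motifs searched on both strands: the octamer ATTTGCAT (reverse ATGCAAAT), CCAAT (reverse ATTGG), the TATA box TATAAA, the H4 element GGTCCG and the H1 box AAACACA.
Hist1h1b, chr13:21780626-21780775, minus strand: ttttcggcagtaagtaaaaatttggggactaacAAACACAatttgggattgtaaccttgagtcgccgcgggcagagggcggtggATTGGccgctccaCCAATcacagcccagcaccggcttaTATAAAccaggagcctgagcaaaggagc
Hist1h2an, chr13:21787249-21787398, minus strand: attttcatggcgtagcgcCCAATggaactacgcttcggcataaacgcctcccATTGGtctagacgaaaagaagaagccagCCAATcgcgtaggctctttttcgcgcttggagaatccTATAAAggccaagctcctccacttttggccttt
Hist1h2ac, chr13:23683960-23684109, minus strand: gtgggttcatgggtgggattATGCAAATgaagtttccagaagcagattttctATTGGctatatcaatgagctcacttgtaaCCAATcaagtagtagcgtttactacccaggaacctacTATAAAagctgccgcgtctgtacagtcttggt
Hist1h2bj, chr13:22043048-22043197, plus strand: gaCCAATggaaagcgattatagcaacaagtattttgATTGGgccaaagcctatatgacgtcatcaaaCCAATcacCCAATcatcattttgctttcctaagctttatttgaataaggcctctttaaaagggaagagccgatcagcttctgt
Hist1h3c, chr13:23745522-23745671, minus strand: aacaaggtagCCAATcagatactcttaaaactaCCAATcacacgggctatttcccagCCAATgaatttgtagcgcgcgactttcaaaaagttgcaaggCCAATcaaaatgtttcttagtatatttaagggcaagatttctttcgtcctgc
Hist1h4i, chr13:22041363-22041512, minus strand: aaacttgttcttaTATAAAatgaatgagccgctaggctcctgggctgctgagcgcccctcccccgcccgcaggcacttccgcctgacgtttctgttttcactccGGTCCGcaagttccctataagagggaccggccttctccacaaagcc

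Promoters of 62 members matched RefSeq, each spanning 250 bases before to 50 after the start. The H4 element lay in 11 of 12 H4 promoters, in 1 of 16 H2B and 1 of 10 H3 promoters, in no H1 or H2A promoter, and in 8.25% of all 32817 promoters. The H1 box lay in 5 of 6 H1 promoters, 2 of 18 H2A and 2 of 16 H2B promoters, in none of H3 or H4, and in 7.19% of all. The octamer lay in 7 of 18 H2A and 6 of 16 H2B promoters, in none of the other classes, and in 1.74% of all. CCAAT was present in every matched H1, H2A, H2B and H3 promoter and in 3 of 12 H4 promoters, against 37.4% of all. TATAAA was present in 4 of 6 H1, 11 of 18 H2A, 8 of 16 H2B, 4 of 10 H3 and 8 of 12 H4 promoters, against 13.6% of all. These counts take either strand and any place in the window. On the gene's strand before the start, TATAAA lay in 24 member promoters, 10 to 250 bases away with a median of 33. Neighbouring H2A and H2B genes can share such a window, so their promoters are not independent counts.

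Libraries held 14216976 to 21020023 counts. All 11 ILC2 markers were detected, and their summed level was 9149 to 11761 CPM with PBS and 10591 to 15198 CPM with IL-33 (counts scaled to a common library size by the TMM method). Acinar cell markers took 37.1% of the counts of PBS replicate 4, against 0.113% to 6.63% of the other PBS libraries and 0.327% to 10.6% of the IL-33 libraries. The beta-globin gene Hbb-bs stood at 449, 218 and 776 CPM in IL-33 replicates 1, 2 and 3, at 1.52 and 0.577 in replicates 4 and 5, and at 0 to 0.861 with PBS. The 6 erythroid markers in the table (of 8) summed to 168 to 323 CPM with PBS and 369 to 3568 with IL-33. T cell markers summed to 934 to 1044 CPM with PBS and 745 to 989 with IL-33, and B cell markers to 6.30 to 25.3 and 57.9 to 102. Endothelial markers summed to 50.8 to 327 CPM with PBS and 31.8 to 83.4 with IL-33, myeloid markers to 13.5 to 24.9 and 12.9 to 41.9, fibroblast markers to 3.30 to 29.0 and 0.387 to 10.1, and endocrine markers to 0.253 to 304 and 0 to 13.9. The part of these cells in the histone levels was not tested. As measurements, the summed histone level of the IL-33 libraries low in beta-globin was 1331 and 1804 CPM, and that of the 3 libraries high in it was 1278, 1704 and 1035 CPM.

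Histone messages were higher with IL-33 in every class. Of the 56 members tested, 42 (75.0%) rose and none fell (edgeR quasi-likelihood test, adjusted p below 0.05 over all 14405 genes tested). Of all genes tested, 13.7% rose, 11.6% fell and 25.2% changed in either direction. At an unadjusted p under 0.05 no member was lower either. Some members, among them Hist1h1b and the 7 H3 members that rose, passed the filter on low counts only through their IL-33 libraries. The median log2 change of the members was 2.49, a fold of 5.63, against -0.05 over all genes tested. In 42 members every IL-33 library lay above every PBS library, which held for 15.3% of all genes tested. Without PBS replicate 4, 39 members rose, and without IL-33 replicates 1, 2 and 3 together 29 rose. With DESeq2, limma voom and limma-trend on the deposited signal 43 rose each, and no member fell with any of them.

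**Figure D1:**
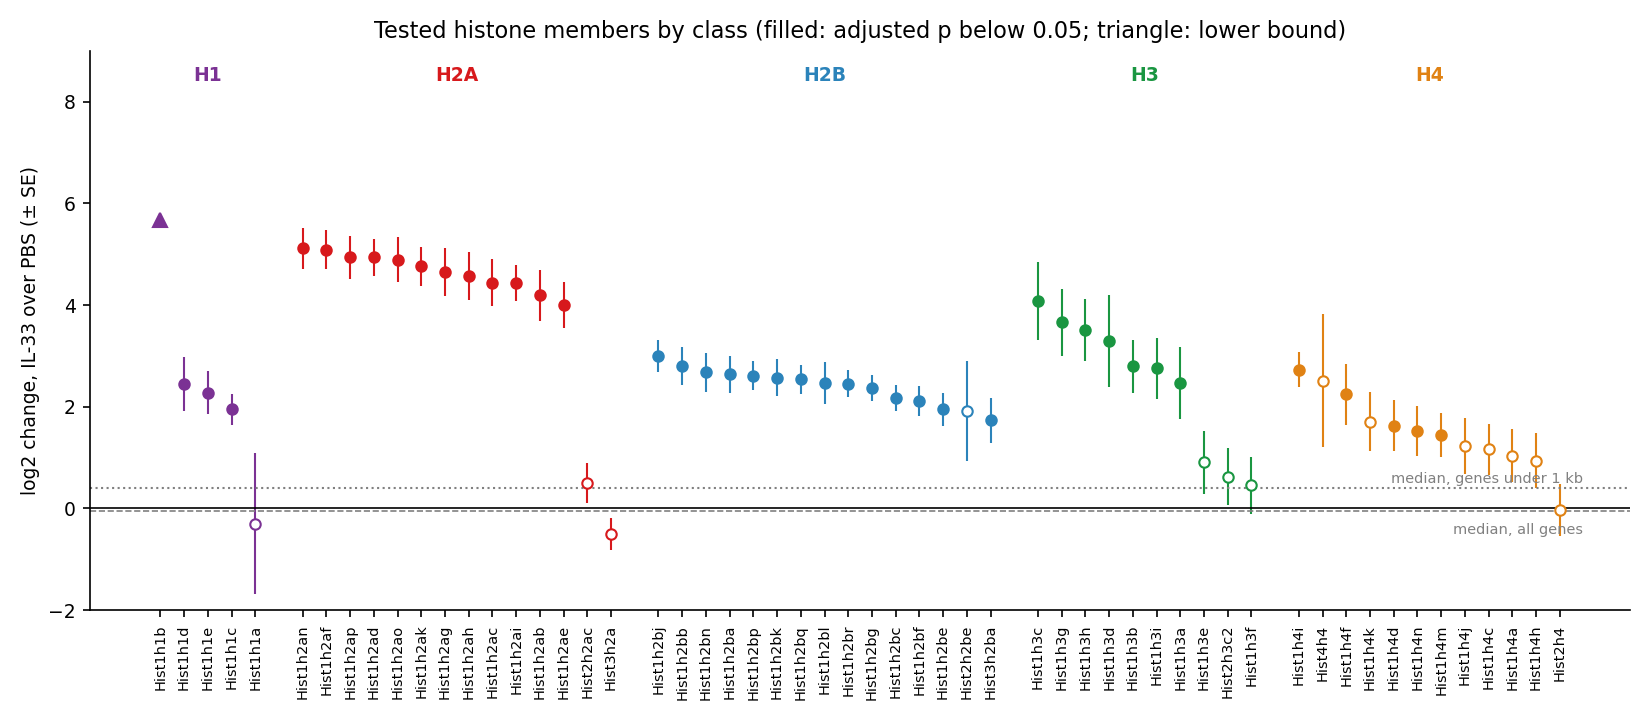
The log2 change with IL-33 of each tested member (vertical axis, error bar 1 SE) is drawn by class, filled where the adjusted p was below 0.05, with a triangle at the lower bound for Hist1h1b, which had no reads with PBS. The 12 H2A members that rose sit between 4.00 and 5.11, above all 15 H2B members, which sit between 1.73 and 3.01.

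Gene length was examined beside this count, since the members are short. The 2291 tested genes under 1000 bases had a median log2 change of 0.40, and 20.2% of them rose. Of the tested members, 45 lay among the shortest 20% of all tested genes (12 to 1317 bases), of which 21.4% rose. With the trend of each library with gene length removed, 37 members rose, 4 of H1, 12 of H2A, 13 of H2B, 6 of H3 and 2 of H4, and the median log2 change of the members was 2.21.

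Summed over each class, the ratio of IL-33 to PBS was largest for H2A. The H2A sum was 48.2, 54.4, 65.9 and 77.9 CPM in PBS replicates 1 to 4 and 637, 1048, 451, 633 and 841 CPM in IL-33 replicates 1 to 5, a mean of 61.6 ± 13.1 (SD, n = 4) against 722 ± 229 (SD, n = 5) and a ratio of 11.7. The groups did not overlap, and the lowest IL-33 library was several times the highest PBS library. The H2B sum was 76.8, 66.7, 81.3 and 105 CPM with PBS and 328, 377, 296, 417 and 603 CPM with IL-33, a ratio of 4.90. The H1 sum was 30.1, 37.4, 61.0 and 83 CPM with PBS and 227, 163, 216, 210 and 265 CPM with IL-33, a ratio of 4.09. Neither class overlapped between groups, and PBS replicate 4 was the highest PBS library for H1, H2A and H2B alike. Single genes held much of these sums. Hist3h2a, which did not pass the test, held 30.7 of the H2A mean of 61.6 CPM with PBS and 21.6 of 722 with IL-33. Hist1h2bc held 40.6 of the H2B mean of 82.4 CPM with PBS and 182 of 404 with IL-33. Hist1h1c held 49.8 of the H1 mean of 52.9 CPM with PBS and 192 of 216 with IL-33.

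The H3 and H4 sums were lower, with smaller ratios. The H3 sum was 11.9, 13.1, 5.07 and 12.2 CPM with PBS and 33.3, 41.8, 28.4, 22.2 and 35.5 CPM with IL-33, a ratio of 3.05. Of its PBS mean of 10.6 CPM, Hist1h3e, Hist2h3c2 and Hist1h3f, which did not pass the test, held 3.18, 2.66 and 2.71 CPM. For H4 the sum was 13.5, 19.2, 25.2 and 19.8 CPM with PBS and 52.3, 75.0, 43.5, 49.0 and 59.3 CPM with IL-33, a ratio of 2.88. In both classes every IL-33 library was above every PBS library. These sums add genes that share reads and were not tested.

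**Figure D2:**
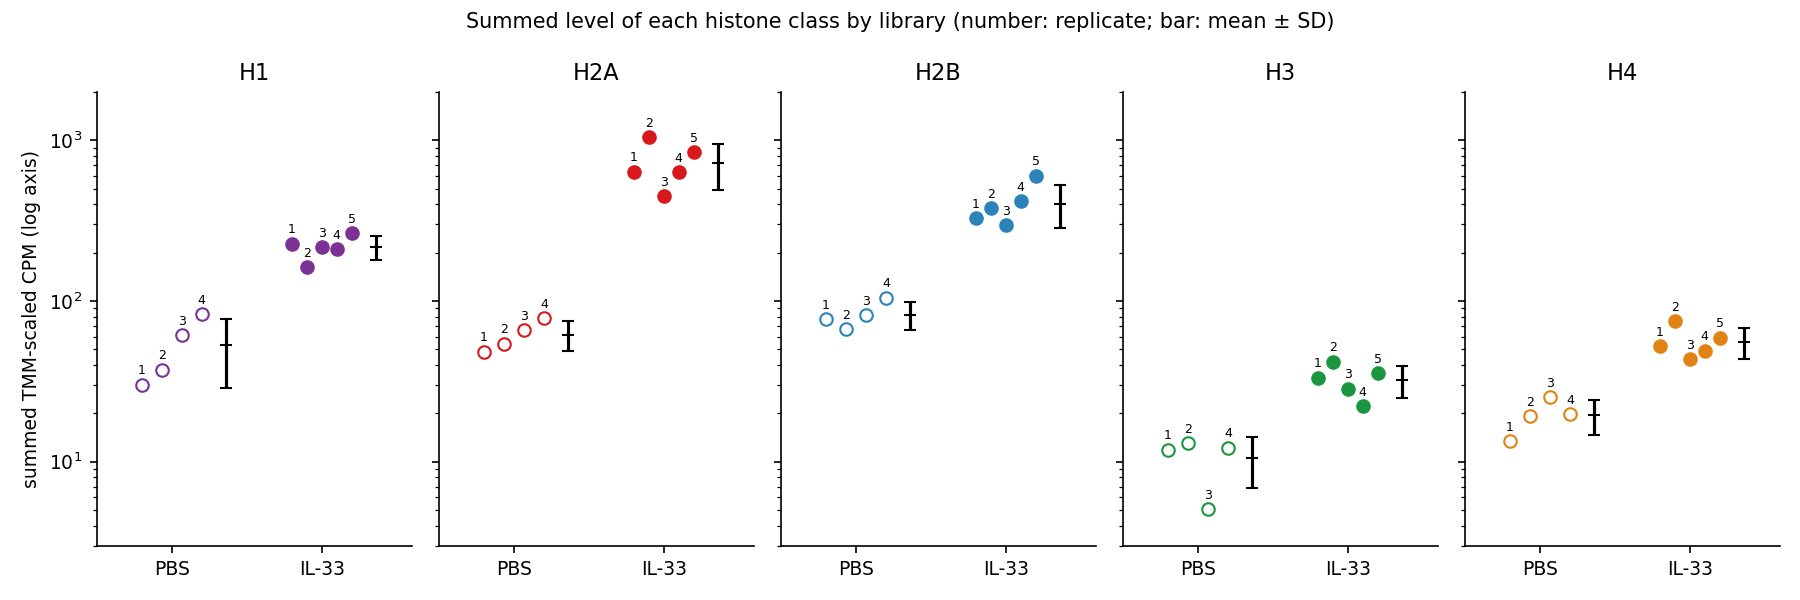
Each panel gives the summed level of 1 histone class in TMM-scaled CPM on a log axis, 1 numbered point per library, with a bar at the mean and SD. The H2A sum moved from 61.6 to 722 CPM and the H4 sum from 19.4 to 55.8 CPM, with no overlap of groups in any class.

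The make-up of the histone message differed between groups. H2A took 26.2% to 28.5% of the summed histone level with PBS and 43.5% to 61.5% with IL-33 (27.3% ± 1.03, SD, n = 4, against 49.8% ± 6.90, SD, n = 5). H2B took 34.1% to 42.5% with PBS and 22.1% to 33.4% with IL-33. H1 went from 16.7% to 27.9% with PBS to 9.54% to 20.9% with IL-33, and these ranges overlapped. H3 took 2.12% to 6.86% with PBS and 1.66% to 2.75% with IL-33, again with overlap. H4 took 6.63% to 10.6% and 3.29% to 4.40%. Since single genes held much of several class sums, these shares need not describe every member of a class.

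Of the H1 members, which encode linker histones, 4 of 5 tested rose, with a class median log2 change of 2.27 (a fold of 4.84). Without IL-33 replicates 1, 2 and 3 together 2 rose. Hist1h1c, encoding the linker histone H1.2 (ENSMUSG00000036181, chr13:23738808-23740367, plus strand, GRCm38, 1 exon), stood at 27.9, 34.3, 57.5 and 79.5 CPM with PBS and at 205, 138, 193, 192 and 234 CPM with IL-33. All IL-33 libraries were above all PBS libraries, and PBS libraries differed among themselves by more than the IL-33 libraries did in proportion. Its mean rose from 49.8 ± 23.5 CPM (SD, n = 4) with PBS to 192 ± 34.7 (SD, n = 5) with IL-33, and the log2 change was 1.95 ± 0.31 (adjusted p = 0.0019, edgeR, error as SE). No 150-base stretch of it occurs in another gene, so whole reads of this length can be placed.

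Hist1h1b, encoding H1.5 (chr13:21779883-21780625, minus strand), had no read in any PBS library and 11, 11.5, 7.72, 5.48 and 13.5 CPM in the IL-33 libraries. Set against a floor of 3 counts in each PBS library it was at least 51.1-fold higher with IL-33 (edgeR adjusted p = 2.9e-04). Like Hist1h1c it shares no 150-base stretch. Hist1h1e, encoding H1.4 (chr13:23620629-23622558, minus strand), stood at 0.66, 1.87, 1.57 and 2.19 CPM with PBS and at 6.02, 7.60, 8.09, 7.05 and 9.23 CPM with IL-33. Its groups did not overlap, and the log2 change was 2.27 ± 0.42 (adjusted p = 0.0043, edgeR, error as SE). Its exons overlap those of Hist1h2be and the gene model Gm11398 on the same strand, so reads could be shared between them. Hist1h1d, encoding H1.3, rose by a log2 change of 2.45 (edgeR adjusted p = 0.0088). Hist1h1a, encoding H1.1, did not pass the test (log2 change -0.30, edgeR adjusted p = 0.90), and Hist1h1t, the testis linker histone, had 0 counts with PBS and 30 with IL-33 and was not tested.

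All 12 tested H2A members of the Hist1 cluster rose, with log2 changes of 4.00 to 5.11. Over the 14 tested H2A members the median was 4.61, a fold of 24.4. The most abundant was Hist1h2ap (ENSMUSG00000094777, chr13:21833026-21833507, minus strand), at 3.20, 2.83, 7.25 and 7.54 CPM with PBS and 140, 236, 94.8, 142 and 181 CPM with IL-33. Within PBS, replicates 3 and 4 were above replicates 1 and 2, and the groups did not overlap. The mean went from 5.20 ± 2.53 CPM (SD, n = 4) with PBS to 159 ± 52.8 (SD, n = 5) with IL-33, and the log2 change was 4.94 ± 0.42 (adjusted p = 9.3e-05, edgeR, error as SE). Of its 150-base stretches 91.0% occur in another gene, so its level may include reads of its copies.

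Hist1h2ao (chr13:21810465-21810944, plus strand) followed the same order, at 3.30, 2.41, 7.40 and 7.35 CPM with PBS and 130, 227, 92.2, 132 and 171 CPM with IL-33 (log2 change 4.89 ± 0.44, edgeR adjusted p = 0.00012). It shares 91.5% of its 150-base stretches with other genes. Hist1h2ag (chr13:22042460-22042944, minus strand) stood at 1.68, 1.27, 4.15 and 4.01 CPM with PBS and at 69.7, 104, 38.1, 59.0 and 75.0 CPM with IL-33 (log2 change 4.65 ± 0.47, edgeR adjusted p = 0.00021). Neither gene's groups overlapped, and in both IL-33 replicate 2 was the highest and replicate 3 the lowest.

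The smallest adjusted p values of the class belonged to Hist1h2ad, Hist1h2af and Hist1h2an. Hist1h2ad (chr13:23574381-23574952, plus strand) stood at 1.57, 0.904, 2.08 and 1.72 CPM with PBS and at 41.2, 71.4, 29.8, 43.4 and 55.4 CPM with IL-33 (log2 change 4.94 ± 0.36, edgeR adjusted p = 4.8e-05). Hist1h2af (chr13:23533906-23534304, plus strand) stood at 1.02, 0.723, 1.57 and 1.15 CPM with PBS and at 30.4, 58.1, 23.4, 32.2 and 46.4 CPM with IL-33 (log2 change 5.08 ± 0.38, edgeR adjusted p = 5.1e-05). Both encode canonical H2A, and the lowest IL-33 library was above every PBS library by more than the whole range of the PBS libraries. Hist1h2an (chr13:21786826-21787218, minus strand), whose promoter is printed above, stood at 1.02, 0.482, 1.32 and 1.34 CPM with PBS and at 32.0, 51.0, 21.5, 31.3 and 43.5 CPM with IL-33 (log2 change 5.11 ± 0.40, edgeR adjusted p = 6.7e-05). Between 58.4% and 72.5% of the 150-base stretches of these 3 genes occur in another gene.

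Hist1h2ak, which shares no 150-base stretch with another gene, rose by a log2 change of 4.76, from 1.14 ± 0.458 (SD, n = 4) to 30.5 ± 9.25 CPM (SD, n = 5). Much shorter stretches of it are shared more widely, with 70.0% of them found in another gene. Hist1h2ac, which shares 5.62% of its 150-base stretches, rose by 4.44. The other tested H2A member without a shared 150-base stretch, Hist2h2ac, did not pass. The part of shared reads in the H2A changes was not tested. Hist1h2ab, Hist1h2ae, Hist1h2ah and Hist1h2ai rose by 4.20, 4.00, 4.57 and 4.44 on the log2 scale. The 2 H2A members outside the Hist1 cluster that were tested did not pass: Hist2h2ac had a log2 change of 0.50 (edgeR adjusted p = 0.39) and Hist3h2a one of -0.50 (edgeR adjusted p = 0.27). Hist3h2a stood at 30.7 ± 5.55 CPM with PBS (SD, n = 4) and 21.6 ± 9.85 CPM with IL-33 (SD, n = 5), and it overlaps Trim17, which had 14 and 30 counts in the groups.

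Of the H2B members, 14 of 15 tested rose, by log2 changes of 1.73 to 3.01, with a class median of 2.47 (a fold of 5.53). Hist1h2bc (ENSMUSG00000018102, chr13:23684199-23692908, plus strand), whose annotated transcript has a second exon, stood at 36.7, 31.2, 41.3 and 53.1 CPM with PBS and at 153, 143, 133, 199 and 281 CPM with IL-33. Its groups did not overlap, and IL-33 replicate 5 was the highest. The mean went from 40.6 ± 9.36 CPM (SD, n = 4) with PBS to 182 ± 61.1 (SD, n = 5) with IL-33, and the log2 change was 2.17 ± 0.26 (adjusted p = 0.00047, edgeR, error as SE).

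Hist1h2bg (chr13:23571396-23572013, plus strand) stood at 6.14, 5.73, 5.27 and 6.97 CPM with PBS and at 24.4, 28.9, 23.5, 30.9 and 47.5 CPM with IL-33 (log2 change 2.365 ± 0.26, edgeR adjusted p = 0.00029). Hist1h2br (chr13:21833743-21837530, plus strand) stood at 3.50, 3.68, 4.36 and 5.25 CPM with PBS and at 18.3, 23.8, 17.4, 22.2 and 32.7 CPM with IL-33 (log2 change 2.45 ± 0.27, edgeR adjusted p = 0.00029). Hist1h2bj (chr13:22043214-22043676, plus strand), the H2B member with the largest change, stood at 2.64, 1.69, 3.60 and 3.24 CPM with PBS and at 17.6, 27.2, 17.0, 20.9 and 29.7 CPM with IL-33 (log2 change 3.01 ± 0.31, edgeR adjusted p = 0.00024). All 3 encode canonical H2B, and none overlapped between groups. Hist1h2ba, Hist1h2bb, Hist1h2be, Hist1h2bf, Hist1h2bk, Hist1h2bl, Hist1h2bn, Hist1h2bp and Hist1h2bq also rose. Hist3h2ba rose by a log2 change of 1.73 (edgeR adjusted p = 0.019), and Hist2h2be did not pass (log2 change 1.91, edgeR adjusted p = 0.19).

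Many H2A and H2B genes stand back to back. Among members in the table, 11 pairs of an H2A and an H2B gene point away from each other with starts 176 to 302 bases apart. In the 10 pairs of the Hist1 cluster both genes rose, and the log2 change of the H2A gene was larger in all 10. Hist1h2an had a log2 change of 5.11 and its neighbour Hist1h2bp one of 2.61. The smallest difference was 1.64, between Hist1h2ag at 4.65 and Hist1h2bj at 3.01 and likewise between Hist1h2ae and Hist1h2bg. The remaining pair, Hist2h2ac and Hist2h2be, had log2 changes of 0.50 and 1.91, neither of which passed. The differences within pairs were not tested.

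Among H3 members 7 of 10 tested rose, with a class median log2 change of 2.78 (a fold of 6.85). The 3 with the highest levels did not rise. Hist1h3e (chr13:23561534-23562369, minus strand) stood at 4.27, 4.28, 0.456 and 3.72 CPM with PBS and at 7.62, 7.12, 7.30, 2.48 and 5.28 CPM with IL-33 (log2 change 0.91 ± 0.62, edgeR adjusted p = 0.32). PBS replicate 3 was far below the other PBS libraries, and IL-33 replicate 4 lay within the PBS range. Hist2h3c2 (chr3:96238108-96239127, minus strand) stood at 2.44, 0.964, 2.08 and 5.15 CPM with PBS and at 4.25, 5.40, 3.58, 1.95 and 5.23 CPM with IL-33 (log2 change 0.62 ± 0.55, edgeR adjusted p = 0.45). Hist1h3f (chr13:23544052-23545312, plus strand) stood at 3, 4.88, 0.861 and 2.10 CPM with PBS and at 4.14, 4.57, 4.60, 1.62 and 3.64 CPM with IL-33 (log2 change 0.45 ± 0.57, edgeR adjusted p = 0.60). The groups of both overlapped.

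The H3 members that rose were at a fraction of 1 CPM with PBS. Their counts in single PBS libraries were mostly under 10, the minimum count of the filter. They thus entered the test only through their IL-33 libraries. Members let in this way could hardly show a fall, so the count of 7 of 10 and the class median are selected toward a rise. Hist1h3h (chr13:21717659-21718069, plus strand) stood at 0.254, 0.362, 0.203 and 0.0954 CPM with PBS and at 2.65, 3.74, 2.19, 1.72 and 3.19 CPM with IL-33 (log2 change 3.50 ± 0.61, edgeR adjusted p = 0.0031). Hist1h3g (chr13:23535422-23535951, plus strand) stood at 0.203, 0.482, 0.101 and 0.191 CPM with PBS and at 2.49, 3.74, 1.77, 3.57 and 4.26 CPM with IL-33 (log2 change 3.66 ± 0.65, edgeR adjusted p = 0.0035). Hist1h3b (chr13:23752267-23752886, plus strand) stood at 0.457, 0.362, 0.405 and 0.191 CPM with PBS and at 2.71, 2.85, 2.09, 2.33 and 2.66 CPM with IL-33 (log2 change 2.80 ± 0.52, edgeR adjusted p = 0.0043). Every IL-33 library of the 3 genes was above every PBS library. Hist1h3a, Hist1h3c, Hist1h3d and Hist1h3i rose by 2.47, 4.08, 3.29 and 2.75 on the log2 scale. With genes below 5 CPM removed none of the 7 remained in the test, and without IL-33 replicates 1, 2 and 3 together 1 H3 member rose.

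H4 had the smallest share of members that rose, 5 of 12 tested, with a class median log2 change of 1.48 (a fold of 2.80). Hist1h4i (ENSMUSG00000060639, chr13:22040636-22041362, minus strand) stood at 2.08, 2.41, 3.85 and 1.62 CPM with PBS and at 16.2, 24.0, 11.3, 15.4 and 16.5 CPM with IL-33. Its groups did not overlap, and its log2 change was 2.73 ± 0.35 (adjusted p = 0.00063, edgeR, error as SE). Of its 150-base stretches 2.08% occur in another gene. Hist1h4d (chr13:23581598-23582735, plus strand), which shares none, stood at 1.02, 2.65, 5.02 and 2.39 CPM with PBS and at 9.17, 11.1, 4.32, 6.96 and 11.2 CPM with IL-33 (log2 change 1.62 ± 0.50, edgeR adjusted p = 0.040). It was the 1 called member whose groups overlapped, since IL-33 replicate 3 lay below PBS replicate 3.

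Hist1h4f (chr13:23551258-23551648, minus strand) stood at 0.254, 0.181, 0.659 and 0.286 CPM with PBS and at 1.38, 1.96, 1.21, 1.52 and 2.26 CPM with IL-33 (log2 change 2.24 ± 0.60, edgeR adjusted p = 0.022). Hist1h4m (chr13:21811746-21812147, plus strand) stood at 1.42, 1.27, 2.58 and 1.53 CPM with PBS and at 3.26, 6.35, 3.67, 4.62 and 5.32 CPM with IL-33 (log2 change 1.45 ± 0.43, edgeR adjusted p = 0.036). The groups of both genes were apart, and Hist1h4n rose by 1.52 (edgeR adjusted p = 0.045). Hist2h4 (chr3:96261682-96263311, minus strand) stood at 2.69, 4.34, 4.41 and 4.48 CPM with PBS and at 4.20, 3.38, 7.91, 1.57 and 2.31 CPM with IL-33, and its IL-33 libraries spread on both sides of the PBS range (log2 change -0.04 ± 0.51, edgeR adjusted p = 0.96). Hist1h4a, Hist1h4c, Hist1h4h, Hist1h4j and Hist1h4k had log2 changes of 1.04, 1.16, 0.94, 1.22 and 1.71 and did not pass. In Hist1h4k every IL-33 library was above every PBS library (edgeR adjusted p = 0.058). Hist4h4, with 16 counts in all PBS libraries together, had a log2 change of 2.51 (edgeR adjusted p = 0.19). With PBS replicate 1 or PBS replicate 2 left out, or IL-33 replicates 1, 2 and 3 together, 1 H4 member rose, and with IL-33 replicate 1, 2, 4 or 5 left out 2 or 3 rose.

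Within the IL-33 group the classes were not all highest in the same library. All 12 H2A members that rose were highest in IL-33 replicate 2 and lowest in replicate 3. All 14 H2B members that rose were highest in replicate 5, as were the 4 H1 members. H3 members were highest in replicate 2 (5 of 7) or replicate 5 (2 of 7), and H4 members in replicate 2 (3 of 5) or replicate 5 (2 of 5). Of the 20 S phase genes that rose, described below, 13 were highest in replicate 2, 4 in replicate 4 and 3 in replicate 5. At the low end most classes were alike. Replicate 3 was also lowest for 13 of the 14 H2B, 4 of the 7 H3 and 4 of the 5 H4 members that rose. It was lowest for 11 of the 20 S phase genes and for none of the 4 H1 members (0). The highest IL-33 library was 2.32 times the lowest for the H2A sum, 2.03 for H2B, 1.89 for H3, 1.72 for H4 and 1.63 for H1. Members of a class share sequence, so these are not independent counts.

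**Figure D3:**
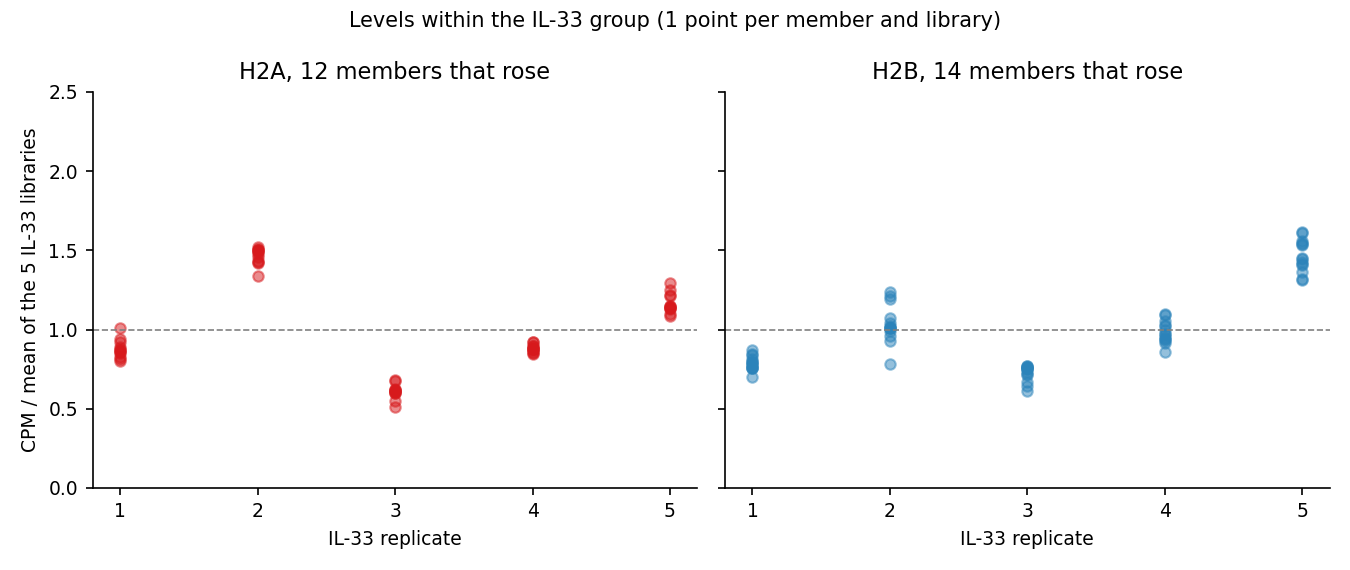
Each point is the level of 1 member that rose in 1 IL-33 library, divided by its mean over the 5 IL-33 libraries, with a panel for H2A and one for H2B and a dashed line at 1. The 12 H2A members are highest in replicate 2, and the 14 H2B members in replicate 5. Replicate 3 is the lowest for all 12 H2A members and for 13 of the 14 H2B members.

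Levels between genes were compared as CPM per kilobase of exon. With PBS the highest were Hist1h2bc at 35.1, Hist1h1c at 31.9, Hist3h2a at 14.3, Hist1h2ap at 10.8 and Hist1h2ao at 10.7 CPM per kilobase. With IL-33 the order was Hist1h2ap at 329, Hist1h2ao at 314, Hist1h2bc at 157, Hist1h2ag at 143 and Hist1h1c at 123 CPM per kilobase. Hist1h2ap and Hist1h2ao thus stood above Hist1h2bc and Hist1h1c with IL-33 and below them with PBS.

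Members of the Hist1 cluster and of the smaller clusters were counted apart. On chromosome 13, in the Hist1 cluster, 41 of 49 tested members rose, with a median log2 change of 2.61. Of the 7 tested members of the Hist2, Hist3 and Hist4 clusters 1 rose, Hist3h2ba, and their median was 0.62. The Hist1 cluster falls into 4 runs of members. In chr13:21715763-21837530, 15 of 17 tested members rose, in chr13:22035164-22043676 all 5, in chr13:23531050-23764406 20 of 26, and in chr13:23933773-23934851 the 1 tested member, Hist1h2ba. No member of the Hist2 cluster, chr3:96219865-96270132, passed (4 tested).

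Members were also counted by where the annotated transcript ends. Of 18 tested members whose transcript ended less than 100 bases after the stem-loop 16 rose, with a median log2 change of 2.80. Of 20 whose transcript ran further 11 rose, with a median of 1.84. Of 18 with no stem-loop found in the annotated transcript 15 rose, with a median of 2.66. In H3 all 4 members of the first kind rose, with a median of 3.23, and 1 of the 4 of the second kind, with a median of 0.77. H4 had 3 of 4 that rose against 2 of 7. In the other classes the counts differed less. H2A had 5 of 6 against 2 of 3, with medians of 4.77 and 4.00. H2B had 4 of 4 against 3 of 3, with medians of 2.69 and 1.95. H1 had no member of the first kind, and 3 of 3 of the second kind rose. The kinds thus differ in class make-up too. The 3 H3 members with the highest levels, Hist1h3e, Hist2h3c2 and Hist1h3f, were of the second kind. Per kilobase, the median level of the first kind was 3.56 CPM with PBS and 13.5 CPM with IL-33, and that of the second kind 2.28 and 4.59 CPM.

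Shared sequence differed between members, and neither the read counter's treatment of such reads nor its strand setting is given in the sources used here. Of 10 tested members without a shared 150-base stretch 6 rose, with a median log2 change of 1.82. Of 29 with some but under 50% shared 21 rose, with a median of 2.47, and of 17 with 50% or more shared 15 rose, with a median of 3.50. Members without any shared 150-base stretch that rose were Hist1h1b, Hist1h1c, Hist1h1d, Hist1h2ak, Hist3h2ba and Hist1h4d. No H3 member was free of shared 150-base stretches. The groups differ in class too. Of the 10 without a shared stretch, 4 were H1 and 2 each were H2A, H2B and H4. Those with 50% or more include Hist1h2ad, Hist1h2af, Hist1h2ag, Hist1h2ah, Hist1h2ai, Hist1h2an, Hist1h2ao and Hist1h2ap. Within H2B, Hist1h2bk, Hist1h2bq and Hist1h2br with 50% or more changed by 2.57, 2.54 and 2.45. The H2B median was 2.47, and that of its 2 tested members without a shared stretch 1.82.

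**Figure D4:**
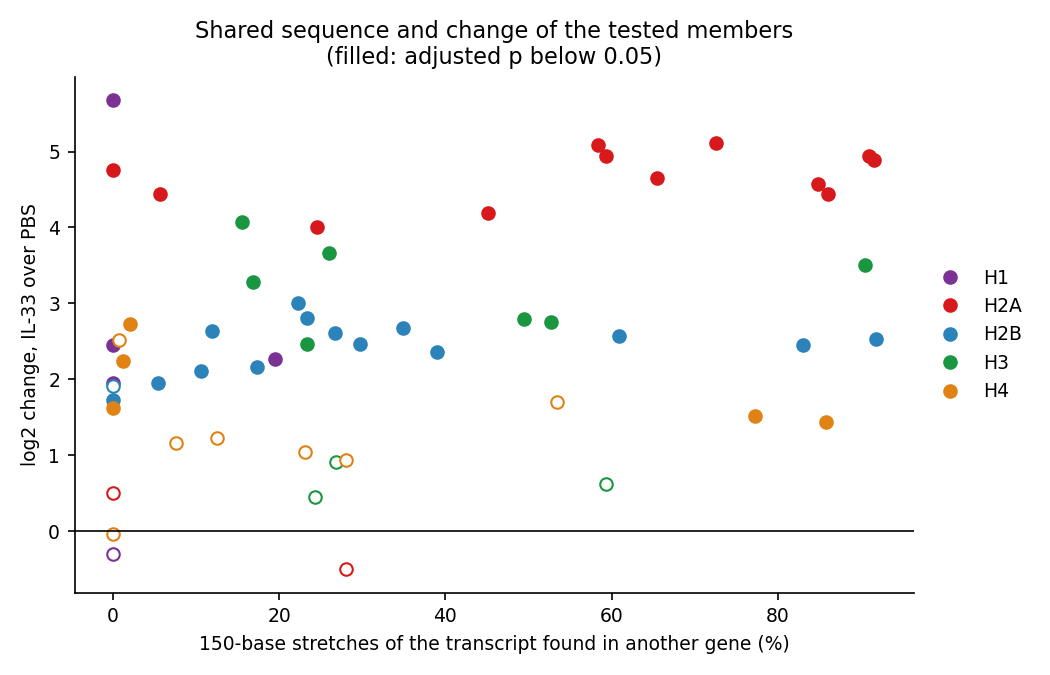
The share of a member's 150-base stretches found in another gene (horizontal axis, %) is set against its log2 change with IL-33 (vertical axis), coloured by class, filled where the adjusted p was below 0.05, with Hist1h1b at its lower bound. Median changes are 1.82 without a shared stretch, 2.47 with under 50% shared and 3.50 with 50% or more, and H2A members at 0% lie at 0.50 (Hist2h2ac) and 4.76 (Hist1h2ak). These groups differ in class make-up.

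Promoter letters varied within classes as well. The 6 tested H2A members with an octamer in the promoter window had log2 changes of -0.50 to 4.57, with a median of 4.10, and the 8 without it 4.44 to 5.11, with a median of 4.91. Of the 6, 4 rose, and the other 2 are Hist2h2ac and Hist3h2a, the tested H2A members outside the Hist1 cluster. The H2A groups with and without the octamer thus differ in cluster too. For H2B the medians were 2.61 with the octamer (4 members) and 2.47 without it (9 members). In the promoters printed above, TATAAA began 28 bases before the start in Hist1h1b, 33 in Hist1h2an, 32 in Hist1h2ac and 137 in Hist1h4i, and GGTCCG 46 bases before it in Hist1h4i.

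Genes that serve histone supply were described by 4 lists. Over all genes tested 13.7% rose and 11.6% fell, the shares to set beside the counts of each list. Of 15 tested genes of histone gene transcription and 3′ end processing 3 rose and none fell, with a median log2 change of 0.19. The count of 3 is little above the share over all genes, so it is not read as a result about the list. At an unadjusted p under 0.05, 1 gene of the list was lower, and 1 fell with DESeq2, 1 with limma-trend and 0 with voom. Cpsf2, encoding a subunit of the cleavage complex, went from 28.0 ± 8.45 CPM (SD, n = 4) with PBS to 60.7 ± 9.40 (SD, n = 5) with IL-33, and the log2 change was 1.11 (adjusted p = 0.0081, edgeR). Eri1, encoding an exonuclease that trims the histone mRNA end, rose by 1.08 (edgeR adjusted p = 0.023). Slbp, encoding the stem-loop binding protein, went from 164 ± 30.0 CPM (SD, n = 4) with PBS to 220 ± 18.7 (SD, n = 5) with IL-33, and the log2 change was 0.43 (adjusted p = 0.043, edgeR). Npat had a log2 change of -0.69 and did not pass (edgeR adjusted p = 0.064). None of the 3 rose without IL-33 replicates 1, 2 and 3 together, and 1 of the list rose without PBS replicate 2 or without PBS replicate 3.

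Of 17 genes for histone chaperones and the acetylation of new histones 7 rose and none fell, with a median log2 change of 0.80. At an unadjusted p under 0.05, 3 genes of the list were lower, and 3 fell with DESeq2, 1 with limma-trend and 1 with voom. Asf1b, encoding a chaperone of H3 and H4, went from 18 ± 10.8 CPM (SD, n = 4) with PBS to 258 ± 44.5 (SD, n = 5) with IL-33, and the log2 change was 3.83 (adjusted p = 2.9e-04, edgeR). Chaf1a, encoding the large subunit of chromatin assembly factor 1, went from 0.101 to 12.4 CPM, a log2 change of 6.70 (edgeR adjusted p = 6.2e-04). Rbbp7 and Nap1l1, encoding a histone-binding subunit and a chaperone of H2A and H2B, rose by 1.44 and 1.11 on the log2 scale.

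Variant and replication-independent histones, made also outside S phase from polyadenylated messages, rose in 7 of 10 tested genes, and 1 fell. Cenpa, encoding the centromeric H3, went from 20.5 ± 3.84 CPM (SD, n = 4) with PBS to 273 ± 27.4 (SD, n = 5) with IL-33, and the log2 change was 3.73 (adjusted p = 7e-06, edgeR). H2afz, encoding H2A.Z, went from 409 ± 22.6 CPM (SD, n = 4) with PBS to 1369 ± 135 (SD, n = 5) with IL-33, and the log2 change was 1.74 (adjusted p = 1.7e-05, edgeR), and H2afv and H1f0 rose by 1.27 and 1.92. The gene that fell, H3f3b, encoding the replacement histone H3.3, had a log2 change of -0.90 (edgeR adjusted p = 0.0056), and with library size alone as the scaling, with a replicate block, or without IL-33 replicates 1, 2 and 3 together, no gene of the list fell. The S phase list rose in 20 of 24 genes, with a median log2 change of 2.20. Tyms, Mcm5, Tk1 and Pcna, which make nucleotides or serve the replication fork, rose by 2.88, 2.49, 3.61 and 1.46 on the log2 scale (edgeR adjusted p = 6.3e-05, 8.7e-05, 9.0e-05 and 3.8e-04). The median log2 change of the 14 tested H2A members, 4.61, was above that of the S phase list, and the difference was not tested.

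**Figure D5:**
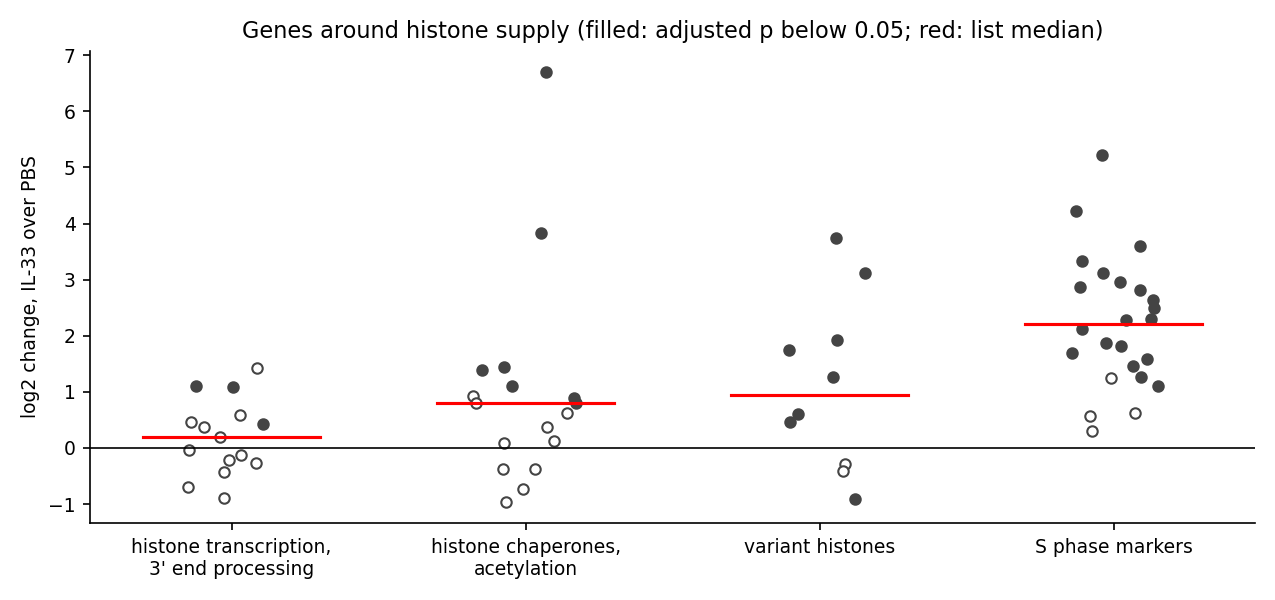
Each point is the log2 change with IL-33 of 1 gene in the 4 lists around histone supply, filled where the adjusted p was below 0.05, with the list median in red. Medians run from 0.19 for transcription and 3′ end processing to 2.20 for S phase.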

How the data were processed

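Messenger RNA of sorted pancreatic ILC2s was sequenced as paired reads of 150 nt from 5 to 15 ng of RNA, per the labels' protocols. Whole-number counts per gene were deposited, as was a normalized signal, which is the count over 1 factor per library, to within 0.036. The submitters' processing notes name Salmon 1.6.0, STAR 2.7.7a, Trimmomatic 0.39, FastQC 0.11.9, DESeq2 and Picard, and the build GRCm38.p6. What each did, the annotation and the strand setting are not stated there. Of 20732 genes, 20571 (99.2%) matched a symbol.

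The test was the two-sided quasi-likelihood F-test of edgeR 4.0.16 (R 4.3.3) with a robust fit, after TMM scaling and the filter filterByExpr at a minimum count of 10. Genes were called at a Benjamini-Hochberg adjusted p below 0.05 over the 14405 that passed. The fitted biological variation between libraries (BCV) came to 0.560. Levels are TMM-scaled CPM, as mean ± SD, and changes are log2 of IL-33 over PBS, with SE. For a gene without reads in a group, a floor of 3 counts in each library was used. Floors cover counting error only. Values in every library are given for the 3 members of each class with the highest mean level and the 3 with the smallest adjusted p, and for the 4 genes of each other list with the smallest adjusted p the change. The members and lists were chosen with earlier results of these data known. Other members were named after their values were seen.

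Shared sequence is the share of a member's 150-base stretches found in another gene's GENCODE M21 transcripts. No 2 libraries were duplicates by a chi-square test. On data simulated for IL-33 against PBS, the test found 18.3% of the 93 genes given a 2-fold change and 60.0% of the 95 given a 4-fold change, with 1 false call among 13852 genes.

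Alternatives were DESeq2 1.42.0 size factors or library size alone, no filter or at least 5 CPM in 4 libraries, a replicate block, limma 3.58.1 voom with sample weights, the DESeq2 Wald test, limma-trend on the deposited signal (log2, pseudocount 1), adjusted p below 0.01, removal of the gene length trend, the acinar share as a covariate, and leaving out IL-33 replicates 1, 2 and 3 together or each library in turn.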

Additional observations from a re-analysis of the deposited data

Results flagged for a closer look

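In 8 of 128 groups examined (a member or class sum in 1 treatment group), the highest or lowest library lay far from the others by Dixon's test at its 95% critical value. Chance flags about 1 in 20 groups, which would be 6.4 here, so the number of flags is near what chance gives.

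Of the 8, 4 lay in H3. Hist1h3e stood at 0.456 CPM in PBS replicate 3, against 3.72 to 4.28 CPM in the other PBS libraries, and the H3 sum at 5.07 CPM there, against 11.9 to 13.1. These values overlap, since Hist1h3e is part of the H3 sum. Hist1h3c stood at 0.362 CPM in PBS replicate 2, against 0.0507 to 0.102, and Hist1h3i at 0.0954 CPM in PBS replicate 4, against 0.406 to 0.456. Hist2h4, an H4 gene, stood at 2.69 CPM in PBS replicate 1, against 4.34 to 4.48. Hist4h4 stood at 1.24 CPM in PBS replicate 4, against 0 to 0.152. Hist2h2ab, an H2A gene below the filter, stood at 0.286 CPM in PBS replicate 4, where the other PBS libraries had no read, and at 0.71 CPM in IL-33 replicate 5, against 0 to 0.0594. Several of these levels rest on few counts: Hist2h2ab had 3 counts in the PBS group and 18 in the IL-33 group.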

How the results depend on the processing

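The number of members that rose was 42 in the reported fit, 29 to 43 over all alternatives and 37 to 43 leaving out 1 library, and none fell in any. With the replicate block and without IL-33 replicate 5, 1 member was lower at an unadjusted p under 0.05. Of the 42, 29 rose in every alternative that gave a value: 12 of 12 H2A, 13 of 14 H2B, 2 of 4 H1, 1 of 7 H3 and 1 of 5 H4. The median log2 change of the 5 classes kept its sign throughout.

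With the replicate block 32 members rose, among them 3 of H3 and 1 of H4, and over all genes 791 rose and 666 fell, against 1967 and 1666. No gene of the transcription and processing list rose with the block, and none of the variant list or of the 4 lists together fell (0 each). Same-numbered libraries were not correlated in their deviations from group means (r -0.0564 to 0.067 over 4 numbers), so the numbers were not taken as a pairing. Without IL-33 replicates 1, 2 and 3 together, 2 H1, 1 H3 and 1 H4 members rose, 732 genes rose and 664 fell. The 4 lists then had 24 genes higher in place of 37 and 0 lower, S phase 13 in place of 20, transcription and processing 0, and the variant list 0 lower. This fit has fewer libraries.

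Library size alone gave 1 H4 member higher, 644 genes that fell and 1332 that rose, 0 genes higher in transcription and processing, and 0 lower in the variant list and the 4 lists. It moved the median log2 change of all genes from -0.05 to 0.08. At adjusted p below 0.01, 1019 genes rose and 767 fell, with 1 H4 member and 1 transcription and processing gene higher. The filter of 5 CPM tested 34 members and gave 0 H3 and 2 H4 calls, with class medians of 0.86 and 2.15. In the reported fit these medians were 2.78 and 1.48. No filter gave 1 H4 call, and removal of the length trend 2, with an H4 median of 1.08. Leaving out 1 library gave 1 to 6 H4 calls, 1 to 3 transcription and processing genes higher, 0 to 1 chaperone genes lower, 1 to 2 variant histones lower and 1 to 3 of the 4 lists lower.

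With DESeq2, 2588 genes fell, 5 of transcription and processing rose and 1 fell, 3 chaperone genes fell and 5 of the 4 lists fell. Limma-trend gave 1 transcription and processing gene, 1 chaperone gene and 3 of the 4 lists lower. Voom gave 1 chaperone gene and 2 of the 4 lists lower, RLE scaling 1 and 2, the 5 CPM filter 2 and 3, and the acinar covariate 2 variant histones and 2 of the 4 lists.

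The sign of 3 members that had not passed turned. Hist1h1a (-0.30) ranged from -0.68 to 0.66 leaving out 1 library, and was above 0 when PBS replicate 1, IL-33 replicate 1 or IL-33 replicate 4 was left out. Hist1h3f (0.45) was at -0.034 without IL-33 replicates 1, 2 and 3. Hist2h4 (-0.04) was at 0.094 with library size alone and 0.022 with the acinar covariate, and ranged from -0.47 to 0.14 leaving out 1 library, below 0 without PBS replicate 1, IL-33 replicate 1 or IL-33 replicate 3. For all these, unless said, the cause was not tested. The 7 H3 members that rose had 10 to 29 counts over all PBS libraries together, so their folds are imprecise.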

Other observations

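Pseudogenes of the histone clusters were left out of the members. Hist1h2aj, annotated as an unprocessed pseudogene on chromosome 13, stood at 1.27 ± 0.372 CPM with PBS (SD, n = 4) and 31.6 ± 9.32 with IL-33 (SD, n = 5) and rose (log2 change 4.63, edgeR adjusted p = 4.8e-05), within the range of the H2A members that rose. Of its 150-base stretches 89.7% occur in another gene. Hist1h2al, a processed pseudogene away from the clusters with no shared stretch, had a log2 change of 0.87 (edgeR adjusted p = 0.092), and Hist3h2bb-ps one of 1.21 (edgeR adjusted p = 0.18).

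Of the 8 members that were not analysed here, Hist2h2aa2 and Hist2h3c1 have 100% of their 150-base stretches in another gene, Hist2h2aa1 87.0% and Hist2h3b 73.7%, while Hist1h2aa and Hist1h2bm share none.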
